A study of Mus musculus with 9 samples.

Results

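A module of 47 proliferation genes was examined in RNA-sequencing data of splenic myeloid-derived suppressor cells (MDSCs), immature myeloid cells that expand in tumour-bearing mice. The members were the rows whose gene symbol stood in a fixed list of E2F target and mitotic genes, 47 of 23284 symbols in each file, and all 47 were found. The 9 libraries came from spleens of mice bearing spindle cell tumour (SCT) cells, a transplanted line prepared from a p16-knockout mouse, and formed 3 groups of 3. Wild-type (WT) mice gave polymorphonuclear MDSCs (PMN-MDSCs) and monocytic MDSCs (Mo-MDSCs). The remaining group was the monocytic subset of mice labelled p16/p21-DKO, which lack the cyclin-dependent kinase (CDK) inhibitors p16 and p21. The strain is given as C57BL/6J for WT and C57BL/6 for DKO-labelled samples, so genotype and any substrain difference cannot be told apart. The free-text descriptions of DKO-labelled replicates 2 and 3 read p16/p22 and p16/p23, whereas their titles and genotype labels read p16/p21. Per the study's methods, a cell isolation kit was used, which took Ly6G+ cells as the polymorphonuclear subset and Gr-1+ cells without Ly6G as the monocytic one. All mice carried the tumour, so no library stands for an untreated spleen. The labels give an age of 3 weeks for every sample, but in the study's methods mice were older when injected, and 3 weeks is the time from tumour injection to cell isolation. Nothing states whether replicates came from separate animals, so p-values measure only the spread between these libraries, which may be technical.

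Values were FPKM, fragments per kilobase scaled to the mapped library, a level already divided by transcript length. Total FPKM ranged from 494252 to 916642 per library, and between 11299 and 11418 genes reached 1 FPKM. Read counts are not in these values, but relative depth was estimated from the steps between FPKM values of low genes. With WT Mo-MDSC replicate 1 set to 1, replicates 2 and 3 of that group were at 1.24 and 1.19. In replicate order PMN-MDSCs were at 0.809, 1.08 and 1.01, and DKO-labelled Mo-MDSCs at 1.11, 1.31 and 1.21. Replicate 1 was thus lowest in each group, and the part of depth in the member levels was not tested. The neutrophil marker list summed to 94663 to 212645 FPKM in PMN-MDSCs and 13640 to 48096 in WT Mo-MDSCs. The monocyte list summed to 1072 to 1130 and 2409 to 2722, so each summed list was higher in the subset of its label. Csf1r made up most of the monocyte sum in PMN-MDSCs, at 745, 841 and 674 FPKM, and overlapped WT Mo-MDSCs, at 787, 853 and 750. The other monocyte markers were higher in WT Mo-MDSCs without overlap. Ly6g, the gene of the antigen used for isolation, was not among the symbols used here. Markers of cells other than MDSCs were also present in every library. Of the erythroid list 12 of 13 genes reached 1 FPKM in all libraries, of the B cell list 7 of 7, and of the red-pulp macrophage list 7 of 7. Of the T and NK cell list 4 of 8 did, of the stem and progenitor list 3 of 8, and of the granulocyte progenitor list 5 of 8. Hba-a2 was listed at or near 0 beside its near-identical copy Hba-a1 at 1110 to 2656 FPKM, and Mecom was at 0 in all 3 WT Mo-MDSC libraries.

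Most members encode the machinery of DNA replication or of mitosis. E2F factors switch on replication genes when CDKs phosphorylate the retinoblastoma (RB) family proteins that hold E2F in check, and p16 and p21 act upstream by inhibiting those kinases. Mitotic genes are switched on later, by complexes that include B-MYB and FOXM1 and that act largely through a short promoter element, the cell cycle genes homology region (CHR), with nearby CCAAT boxes bound by NF-Y. Transcripts of both kinds are abundant in cycling cells and scarce in resting ones. They were ordered by role into 12 licensing and replication fork genes and 4 nucleotide supply genes, together the 16 S-phase members, 21 mitotic members and 10 others.

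The promoters of the 2 classes are shown because their members moved apart between libraries, as described further on. RefSeq promoter windows of GRCm38.p6, from 250 bases before to 50 bases after the annotated start, were matched by symbol for 38 of 47 members, 5 of them with several windows. Mcm4, Gins2, Foxm1, Ccna2, Aurkb, Kif20a, Tpx2, Lmnb1 and Stmn1 had none. Both strands were searched for an E2F site (TTTCCCGC, TTTCGCGC, TTTGCCGC or TTTGGCGC), a CHR element (TTTGAA or TTCGAA) and a CCAAT box (CCAAT). The stretches below are the 200 bases before the start, read 5′ to 3′ on the gene's strand, with these matches on either strand in capitals. Mcm6 (chr1:128359706-128359905, minus strand) and Mcm5 (chr8:75109309-75109508, plus strand) encode subunits of the replicative helicase. Cdk1 (chr10:69352913-69353112, minus strand) encodes the mitotic kinase and Ccnb2 (chr9:70421555-70421754, minus strand) a cyclin that activates it. Kif23 (chr9:61946800-61946999, minus strand), a cytokinesis motor, and Hmgb2 (chr8:57511643-57511842, plus strand), a DNA-bending chromatin protein, are 2 of the 3 members that were lower in Mo-MDSCs.
Mcm6: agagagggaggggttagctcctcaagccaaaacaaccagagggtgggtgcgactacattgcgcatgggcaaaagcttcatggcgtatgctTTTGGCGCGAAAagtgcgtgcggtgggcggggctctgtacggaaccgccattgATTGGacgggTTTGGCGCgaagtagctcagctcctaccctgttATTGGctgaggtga
Mcm5: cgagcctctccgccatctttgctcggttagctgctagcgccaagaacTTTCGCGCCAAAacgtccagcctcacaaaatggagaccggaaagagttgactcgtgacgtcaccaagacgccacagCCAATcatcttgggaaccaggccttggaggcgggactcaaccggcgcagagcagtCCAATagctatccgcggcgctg
Cdk1: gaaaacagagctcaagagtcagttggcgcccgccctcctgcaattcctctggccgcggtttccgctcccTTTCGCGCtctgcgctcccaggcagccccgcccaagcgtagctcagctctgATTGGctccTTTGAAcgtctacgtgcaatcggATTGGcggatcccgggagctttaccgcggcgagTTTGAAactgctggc
Ccnb2: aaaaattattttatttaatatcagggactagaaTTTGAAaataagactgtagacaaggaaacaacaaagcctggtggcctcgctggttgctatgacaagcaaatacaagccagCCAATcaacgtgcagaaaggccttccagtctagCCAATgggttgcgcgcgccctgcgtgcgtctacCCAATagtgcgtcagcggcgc
Kif23: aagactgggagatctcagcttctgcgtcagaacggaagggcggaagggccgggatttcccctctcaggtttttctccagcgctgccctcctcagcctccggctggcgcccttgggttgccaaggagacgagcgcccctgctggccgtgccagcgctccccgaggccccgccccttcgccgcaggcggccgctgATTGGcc
Hmgb2: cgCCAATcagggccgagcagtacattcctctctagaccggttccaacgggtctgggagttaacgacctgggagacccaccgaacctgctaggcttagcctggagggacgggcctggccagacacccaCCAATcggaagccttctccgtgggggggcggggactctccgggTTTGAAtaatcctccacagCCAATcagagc

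In the Mcm6 stretch E2F matches began at positions -110, -106 and -47, counted back from the start, the first 2 of them overlapping on opposite strands, and ATTGG, the CCAAT box on the other strand, began at -57 and -14. The Mcm5 stretch likewise held overlapping E2F matches, from -153 and -149, and CCAAT boxes from -77 and -22. Cdk1 held all 3 motifs, with an E2F match from -131, CHR elements from -71 and -15 and CCAAT boxes from -80 and -48. The Ccnb2 stretch held a CHR element from -167 and CCAAT boxes from -87, -54 and -21, and no E2F match. The Hmgb2 stretch held a CHR element from -30 and 3 CCAAT boxes, whereas the Kif23 stretch held only a CCAAT box from -7, its CHR match lying in the window outside the stretch shown. Other windows also held more matches than their stretches. In the whole window Ccnb2 had 2 CHR elements, Hmgb2 had 2 CHR elements and 4 CCAAT boxes, and Cdk1 and Mcm5 had 3 CCAAT boxes each.

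Over the module, the E2F site was found in 7 of 14 S-phase members with a window (50%, 95% Wilson interval 26.8 to 73.2) and in 1 of 17 mitotic members (5.88%, 1.05 to 27), against 704 of 27025 genes (2.6%). The CHR element showed the opposite split, with 3 of 14 S-phase members (21.4%, 7.57 to 47.6) and 13 of 17 mitotic members (76.5%, 52.7 to 90.4), against 21.7% of all genes. CCAAT boxes were found in 8 of 14 S-phase members (57.1%) and 15 of 17 mitotic members (88.2%), against 41.1%. A CHR element and a CCAAT box stood together in 13 of 17 mitotic members and in 9.65% of all genes. E2F matches overlapped a CCAAT box in 1 of 44 member windows, and the other motifs did not overlap. With the leading T of each E2F site dropped, which leaves a core of 7 letters, matches were found in 10 of 14 S-phase and 2 of 17 mitotic members and 10.9% of all genes. These are letter matches in a window and not measured binding.

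**Figure D1:**
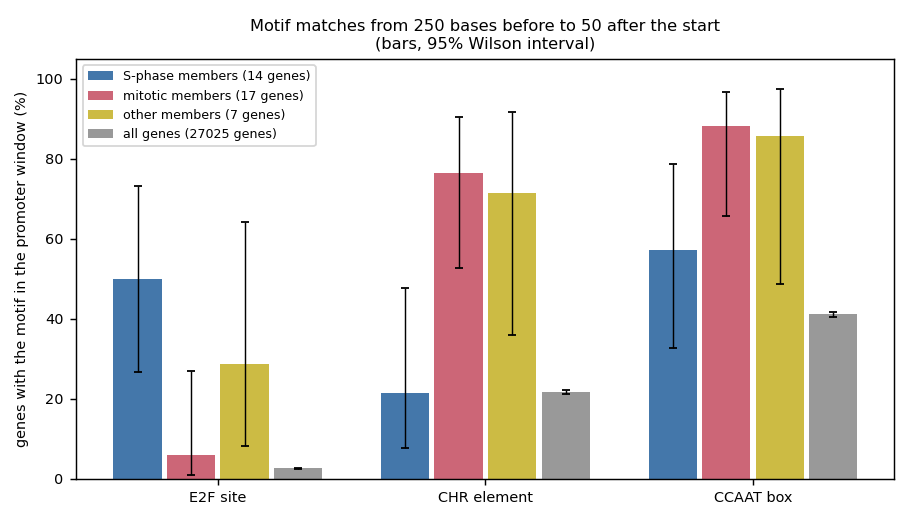
Share of genes with at least 1 match of each motif in the promoter window (y axis, percent; bars, 95% Wilson interval) for S-phase, mitotic and other members and for all genes. E2F sites stand highest in S-phase members at 50%, and CHR elements in mitotic members at 76.5%, against 2.6% and 21.7% of all genes.

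All members were expressed in every library at 1 FPKM or more. Averaged over the 9 libraries, the lowest was Ttk, a spindle checkpoint kinase, at 2.74 FPKM, the highest Hmgb2 at 148.9, and the median 21.8. The second highest was the replication clamp gene Pcna, at 115.5, 149.0 and 124.5 FPKM for PMN-MDSCs (here and throughout in the order of replicates 1 to 3), 114.8, 151.9 and 127.7 for WT Mo-MDSCs, and 111.5, 168.3 and 150.5 for Mo-MDSCs labelled DKO. Its levels overlapped between groups. Mki67, the gene of the proliferation marker Ki-67, had 29.9, 44.2 and 37.8 FPKM in PMN-MDSCs. It had 37.3, 60.1 and 54.2 in Mo-MDSCs of WT mice and 35.2, 66.9 and 73.0 in those labelled DKO. Replicate 1 was the lowest library of each group for Mki67, as it was for 43 of 47 members in PMN-MDSCs, 44 in WT Mo-MDSCs and all 47 in DKO-labelled Mo-MDSCs. The share of all genes lowest in replicate 1 was not counted, so this may not be particular to the members. Per the library numbers in the labels, replicate 1 of every group belonged to an earlier series than replicates 2 and 3, so series and replicate 1 cannot be told apart.

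The S-phase and mitotic members differed in which library was highest. All 16 S-phase members were highest in replicate 2 of PMN-MDSCs and again in replicate 2 of WT Mo-MDSCs, whereas 17 of 21 mitotic members were highest in replicate 3 of each. Mcm2, a helicase subunit, shows the first pattern, with 18.9, 32.3 and 22.1 FPKM in PMN-MDSCs and 18.5, 32.1 and 21.1 in WT Mo-MDSCs. Cdc20, an activator of the anaphase-promoting complex, shows the second, with 16.3, 17.8 and 25.8 FPKM in PMN-MDSCs and 17.5, 20.2 and 26.7 in WT Mo-MDSCs. In DKO-labelled Mo-MDSCs, Mcm2 was at 19.4, 39.0 and 38.3 and Cdc20 at 11.3, 21.7 and 17.5, so replicates 2 and 3 were both high for Mcm2. There 10 S-phase members were highest in replicate 2 and 6 in replicate 3. The shares of all genes highest in each replicate were not counted.

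**Figure D2:**
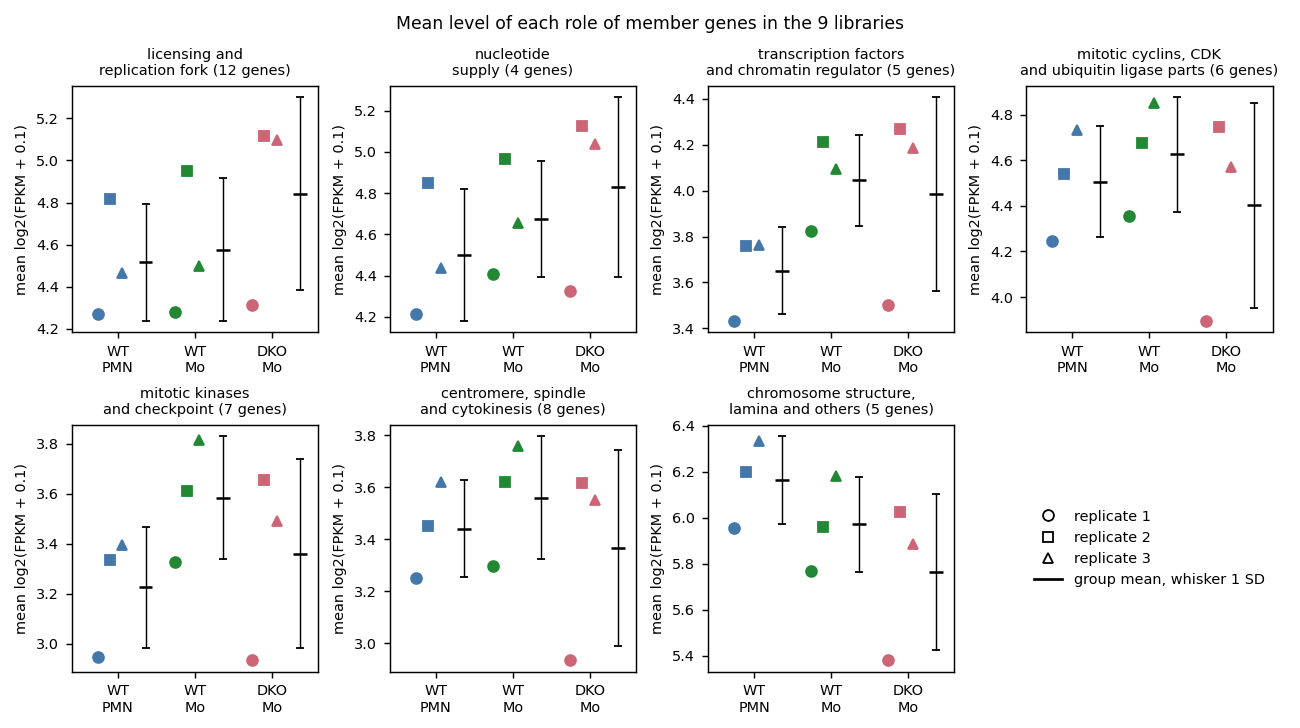
Mean log2(FPKM + 0.1) of the members of each role (y axis) in the 9 libraries (points, shaped by replicate number) of WT PMN-MDSCs, WT Mo-MDSCs and Mo-MDSCs labelled DKO, with the group mean and 1 SD at the right of each group. Replicate 1 is lowest in every panel and group, and for licensing genes the WT groups are highest in replicate 2 and for mitotic roles in replicate 3.

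Levels of erythroid markers moved with the S-phase pattern, and those of granulocyte progenitor markers with the mitotic pattern only in part. Mean erythroid marker level, on the log2(FPKM + 0.1) scale, was 4.66, 5.82 and 5.07 for PMN-MDSCs, 4.81, 5.90 and 4.91 for WT Mo-MDSCs and 5.20, 5.92 and 5.80 for DKO-labelled Mo-MDSCs. The mean of the 16 S-phase members was 4.26, 4.82 and 4.46, then 4.31, 4.95 and 4.54, then 4.32, 5.12 and 5.08. Both were thus high in the same 4 libraries, replicate 2 of each group and DKO-labelled replicate 3. Klf1, an erythroid transcription factor gene, had 12.2, 31.9 and 15.8 FPKM in PMN-MDSCs, then 10.4, 34.7 and 12.8, then 13.6, 40.3 and 35.5, with the same 4 libraries high. For the mitotic members the means were 3.44, 3.72 and 3.86, then 3.61, 3.92 and 4.09, then 3.21, 3.95 and 3.82. The granulocyte progenitor list, which holds granule genes such as Camp and Ngp, had means of 4.62, 3.45 and 5.51, then 5.42, 4.58 and 6.13, then 3.91, 4.72 and 3.67. In both WT groups replicate 3 was the highest library for mitotic members and for granulocyte progenitor markers, but replicate 2 was lowest for those markers and intermediate for mitotic members. In DKO-labelled Mo-MDSCs replicate 2 was highest for both, but replicate 3 was lowest for those markers and intermediate for mitotic members. These markers' part in the members' levels was not tested. In bulk libraries fewer cycling cells and less RNA of these genes per cell cannot be told apart.

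**Figure D3:**
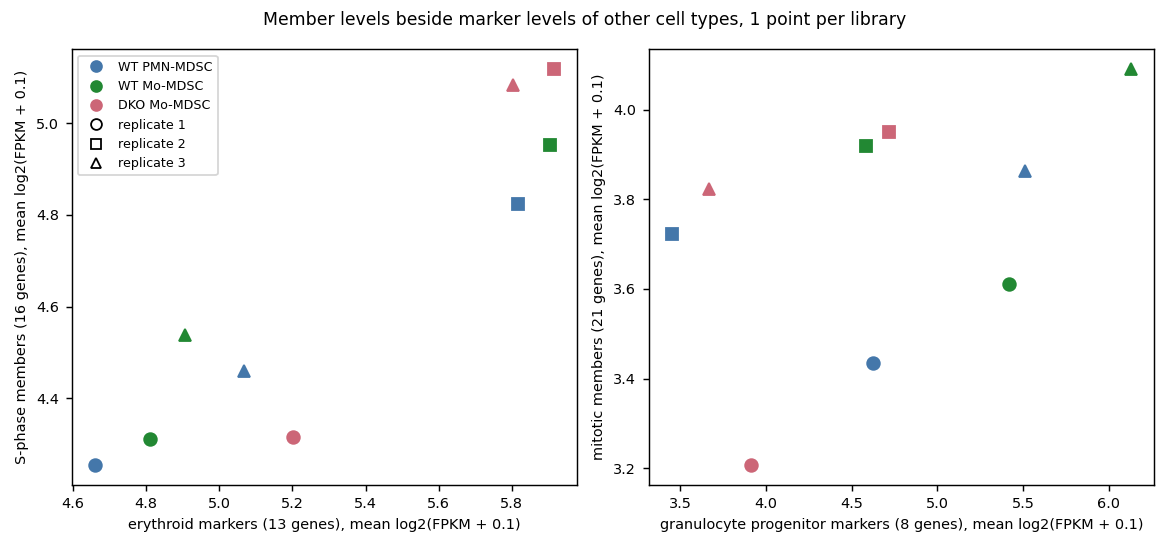
Mean log2(FPKM + 0.1) of S-phase members beside erythroid markers (left) and of mitotic members beside granulocyte progenitor markers (right), 1 point per library, coloured by group and shaped by replicate number. On the left, replicate 2 of each group and DKO-labelled replicate 3 lie above 5.8 for erythroid markers and above 4.8 for S-phase members, apart from the other 5 libraries.

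Comparing WT Mo-MDSCs with WT PMN-MDSCs asks how proliferation transcripts differ between the 2 MDSC subsets of one host. Of the 47 members 5 were higher in Mo-MDSCs (Foxm1, Aurkb, E2f1, Kif11 and Nusap1) and 3 lower (Kif23, Lmnb1 and Hmgb2) at an adjusted p-value below 0.05, by limma on log2(FPKM + 0.1) with Benjamini-Hochberg adjustment over the 11491 genes tested. These counts were 10.6% and 6.38% of the members, below the 18.5% of all genes called higher and 20.6% called lower. The median member difference was 0.15 on the log2 scale against 0.01 for all genes, and 38 of 47 member differences were above 0, beside 5838 of 11491 genes. This median was 0.005 without PMN-MDSC replicate 1, 0.06 without WT Mo-MDSC replicate 2 and 0.32 without WT Mo-MDSC replicate 1. After quantile normalization 6 members were higher and 2 lower, Hmgb2 no longer being called. The count of 5 was 1 without PMN-MDSC replicate 1, WT Mo-MDSC replicate 2 or WT Mo-MDSC replicate 3, 3 without PMN-MDSC replicate 3 and 9 without WT Mo-MDSC replicate 1. Shares of all genes called were not counted in the fits that left out a library or after quantile normalization.

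Libraries of the 2 WT groups with the same replicate number deviated together, and with that number as a block the count of higher members was 21 and of lower members 3. This was 44.7% and 6.38% of the members, beside 27.6% of all genes called higher and 29.7% called lower in the same fit. All 8 members called without the block were among these 24. The median SE of a member was 0.178 without the block and 0.063 with it, on the same differences. WT Mo-MDSCs were above PMN-MDSCs in all 3 pairs for 29 members, and below in all 3 pairs for 5 (Kif23, Lmnb1, Hmgb2, Mcm2 and Mcm4). How many of all genes kept 1 direction in all 3 pairs was not counted. With 1 replicate number left out of the blocked fit, 14 to 18 members were higher, and 14 were higher in every blocked fit, among them Foxm1, E2f1, E2f8, Aurkb, Bub1, Mki67, Top2a, Ccna2 and Rrm2. Shares of all genes were not counted in the blocked fits that left out a replicate number.

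**Figure D4:**
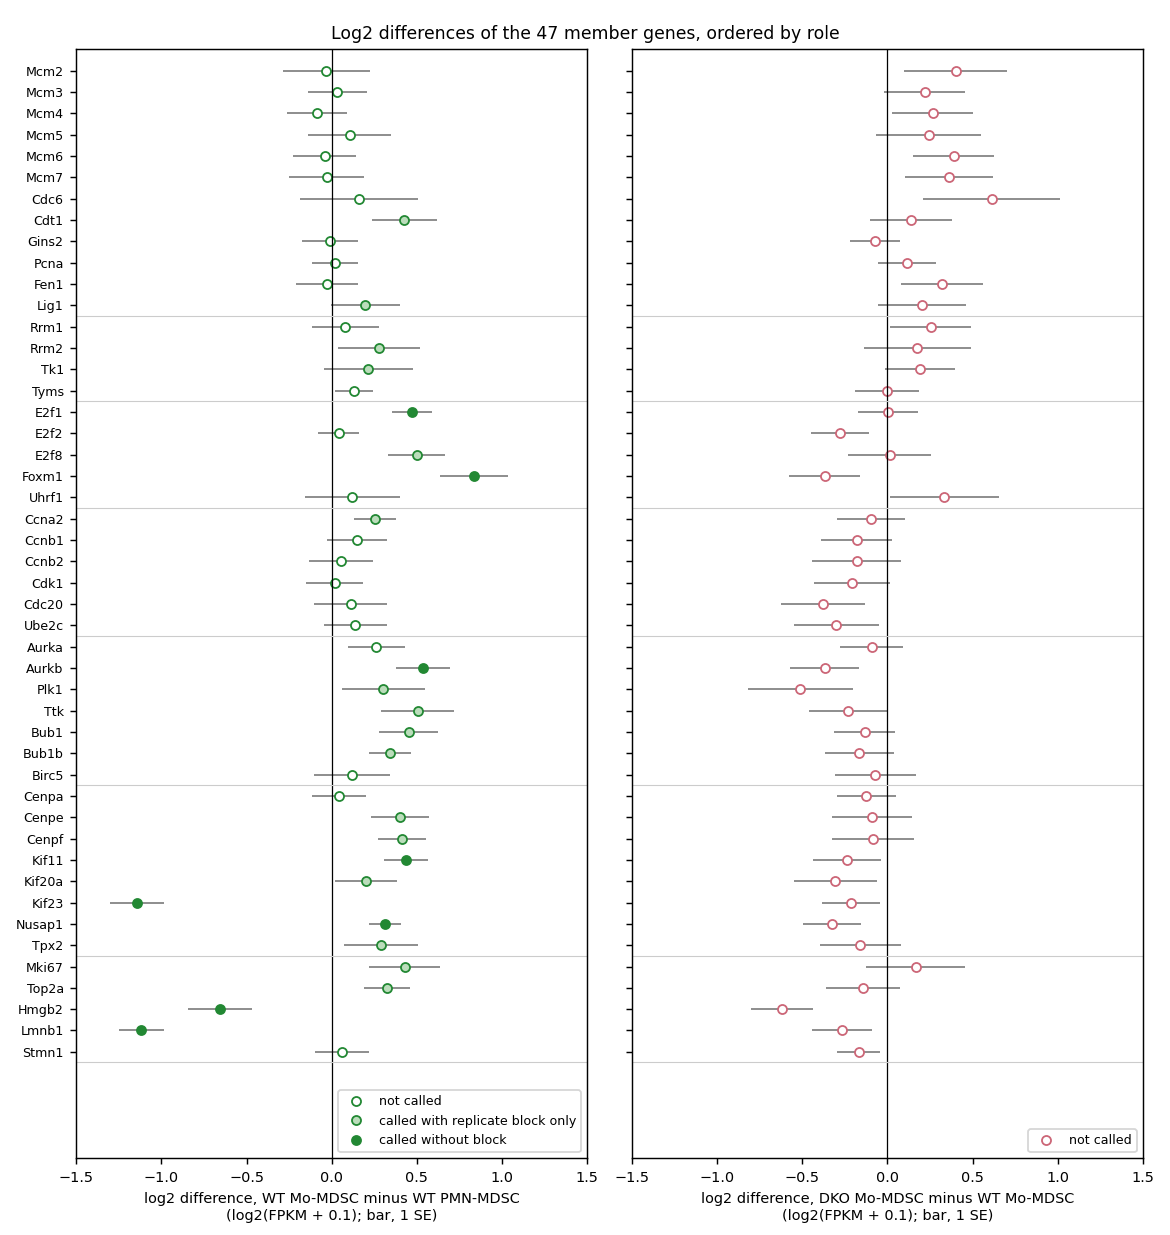
Log2 difference of each of the 47 members (x axis; bars, 1 SE without block) for WT Mo-MDSC minus WT PMN-MDSC (left) and Mo-MDSC labelled DKO minus WT (right), ordered by role, with filled points called by limma. On the left Kif23, Lmnb1 and Hmgb2 stand below 0 while 38 members stand above it, and on the right the upper 16 S-phase members lie mostly above 0, all mitotic members below 0, and none is called.

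Among regulators of the programme, Foxm1, the forkhead factor of mitotic gene transcription, differed most in the upward direction. Its FPKM was 4.14, 4.32 and 6.32 in PMN-MDSCs and 8.12, 7.56 and 10.7 in WT Mo-MDSCs. The groups did not overlap, and the level was 1.78-fold higher in Mo-MDSCs (log2 difference 0.83, SE 0.20, adjusted p = 0.0152). E2f1, an activating E2F factor, was at 7.24, 8.32 and 6.69 against 9.30, 11.5 and 10.2, without overlap, a 1.39-fold difference (0.47, SE 0.12, adjusted p = 0.0193). E2f8, an atypical E2F that represses E2F targets, was at 8.84, 12.2 and 11.9 against 12.7, 17.7 and 16.2, with an adjusted p of 0.0535, and of 0.000846 with the replicate block. E2f2, the most abundant of the 3 E2F members, was at 37.3, 41.6 and 48.0 against 38.9, 48.1 and 43.2, and its groups overlapped (log2 difference 0.04, 95% interval -0.24 to 0.32). Uhrf1, which maintains DNA methylation at replication, differed by 0.12 (SE 0.28). The 5 regulators together had a median difference of 0.47.

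Of the 12 licensing and replication fork members none was called, and their median difference was 0.00, with 6 above 0 and 6 below. Mcm2 differed by -0.03 (95% interval -0.64 to 0.57) and Pcna by 0.02 (-0.30 to 0.34). With the block their standard errors were 0.05 and 0.04, and neither was called. Mean level of Mcm2 to Mcm7 was 4.87 ± 0.27 (SD, n = 3) in PMN-MDSCs and 4.86 ± 0.36 in WT Mo-MDSCs on the log2 scale. Cdt1, which loads the helicase onto origins, and Lig1, a DNA ligase, were higher with the block (adjusted p = 0.00151 and 0.0238), by 0.43 and 0.20. Of the 4 nucleotide supply genes, Rrm2, the regulated subunit of ribonucleotide reductase, was at 37.4, 58.4 and 43.9 FPKM in PMN-MDSCs and 41.5, 75.1 and 54.6 in WT Mo-MDSCs. It was higher in every pair although the groups overlapped, by 0.28 on the log2 scale, with an adjusted p of 0.401 without the block and 0.00827 with it. Tk1, thymidine kinase, was called only with the block (0.21, adjusted p = 0.0346), and Rrm1 and Tyms in neither fit.

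The 6 mitotic cyclin, CDK and ubiquitin ligase genes lay close to each other and none was called without the block. Cdk1 was at 11.002, 14.0 and 14.4 FPKM in PMN-MDSCs and 10.9, 12.97 and 16.2 in WT Mo-MDSCs, overlapping fully, with a difference of 0.02 (95% interval -0.38 to 0.41). Ccnb1, cyclin B1, was at 13.1, 16.1 and 18.7 against 14.0, 19.8 and 19.4, and differed by 0.15 (-0.27 to 0.56). Ccna2, cyclin A2, was at 23.6, 29.7 and 27.0 against 27.6, 35.0 and 33.4. Only its lowest Mo-MDSC library lay below the highest PMN-MDSC library, and it was called with the block alone (0.26, adjusted p = 0.0059). Ccnb2, Cdc20 and Ube2c, the last an E2 enzyme of the anaphase-promoting complex, differed by 0.05 to 0.14 and were not called in either fit.

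Kinases and checkpoint genes of mitosis were all above 0, by 0.12 to 0.54. Aurkb, the kinase of the chromosomal passenger complex, was at 10.6, 15.8 and 13.9 FPKM in PMN-MDSCs and 16.8, 20.4 and 20.8 in WT Mo-MDSCs. Its groups did not overlap and it was 1.45-fold higher (0.54, SE 0.16, adjusted p = 0.0339). With the block Plk1, Ttk, Bub1 and Bub1b were called too, at adjusted p-values of 0.0116, 0.0176, 0.0109 and 0.0114. Aurka and Birc5, the latter encoding survivin, were called in neither fit.

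The 8 centromere, spindle and cytokinesis genes held members of both directions. Kif11, the kinesin that separates spindle poles, was at 11.9, 12.4 and 14.3 FPKM in PMN-MDSCs and 15.1, 17.2 and 20.2 in WT Mo-MDSCs (1.35-fold, 0.44, SE 0.13, adjusted p = 0.032). Nusap1, a spindle microtubule protein gene, was at 13.2, 12.5 and 14.1 against 14.9, 17.1 and 17.7 (1.24-fold, 0.31, SE 0.09, adjusted p = 0.0359). Neither gene's groups overlapped. Kif23, the kinesin of the centralspindlin complex at the midbody, went the other way, at 28.1, 36.5 and 38.0 FPKM in PMN-MDSCs and 12.6, 16.7 and 17.0 in WT Mo-MDSCs. It was 2.21-fold lower in Mo-MDSCs (-1.14, SE 0.16, adjusted p = 0.00156), and the 3 pair differences were -1.15, -1.12 and -1.16. The other 20 mitotic members were above 0. Cenpe, Cenpf, Kif20a and Tpx2 were higher with the block only, by 0.20 to 0.41, and Cenpa in neither fit.

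Hmgb2 and Lmnb1, members outside the replication and mitotic machinery, were also lower in Mo-MDSCs. Lmnb1, which encodes the nuclear lamina protein lamin B1, was at 72.3, 75.1 and 93.4 FPKM in PMN-MDSCs and 33.3, 34.9 and 42.3 in WT Mo-MDSCs, 2.17-fold lower (-1.12, SE 0.13, adjusted p = 0.000746). Hmgb2 was at 196.5, 189.9 and 267.6 against 131.1, 113.5 and 171.2, 1.58-fold lower (-0.66, SE 0.19, adjusted p = 0.0297). Neither gene's groups overlapped. Kif23 and Lmnb1 were called under each of the 20 alternative settings run, and Hmgb2 under 14 of 20. Of the members called higher, Foxm1 was called under 18 of 20, E2f1 under 13, Aurkb and Kif11 under 12 and Nusap1 under 10. Top2a, topoisomerase II alpha, was at 31.3, 33.7 and 38.1 against 36.9, 42.2 and 50.7, with 1 Mo-MDSC library below the highest PMN-MDSC library, and Mki67 differed by 0.43 with overlap. Both were called with the block alone (adjusted p = 0.00335 and 0.00128). Stmn1, a microtubule-destabilising protein gene, overlapped at 68.9, 100.4 and 94.3 against 80.0, 92.2 and 100.4.

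**Figure D5:**
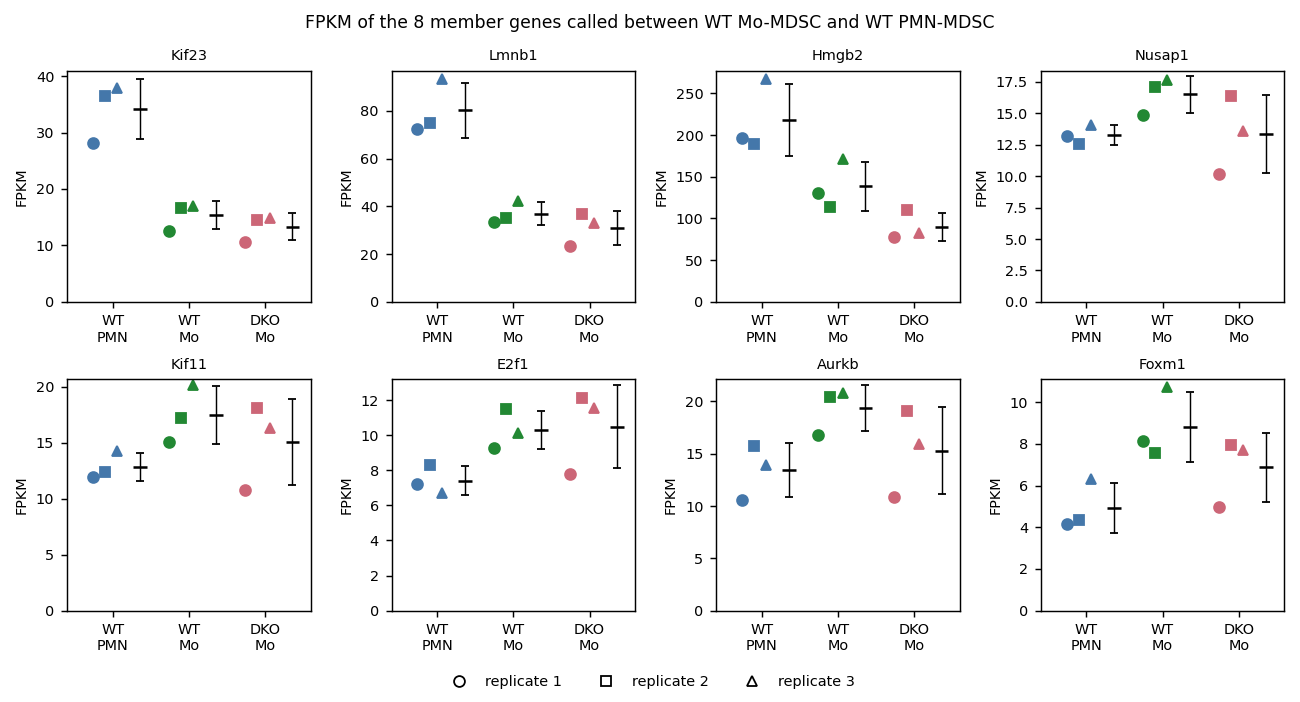
FPKM (y axis, from 0) of the 8 members called between WT Mo-MDSCs and WT PMN-MDSCs, by library (points shaped by replicate number) and group, with the mean and 1 SD. Kif23, Lmnb1 and Hmgb2 lie highest in all 3 PMN-MDSC libraries, the other 5 lie higher in all 3 WT Mo-MDSC than in all 3 PMN-MDSC libraries, and the libraries labelled DKO spread widely in those 5.

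Other genes of the pathway were counted in the same way, from lists that were also drawn up with earlier results of these data known. Of 30 other S-phase E2F targets 2 were higher and none lower, and of 35 other mitotic genes 6 were higher and 3 lower, without the block, and with it 8 and 1, then 24 and 3. The shares higher were 6.67% and 17.1% without the block, beside 18.5% of all genes. With the block they were 26.7% and 68.6%, beside 27.6%. The shares lower were at most 8.57%, beside 20.6% of all genes without the block and 29.7% with it. Median differences of these lists were 0.16 and 0.29. Pttg1, encoding securin, was lower in Mo-MDSCs at 27.9, 31.7 and 31.6 FPKM against 62.9, 84.6 and 82.4 (2.50-fold, adjusted p = 0.000289). Cks2, a CDK-binding subunit gene, was lower at 45.0, 51.5 and 56.7 against 76.7, 95.4 and 115.1 (1.86-fold, adjusted p = 0.00441). Espl1, encoding separase, which securin inhibits, was higher at 4.31, 6.75 and 5.72 against 2.27, 4.09 and 2.94 (1.80-fold, adjusted p = 0.0314). Cdc25c, the phosphatase gene that activates CDK1, was higher at 3.46, 3.52 and 4.49 against 2.17, 1.88 and 2.63 (1.69-fold, adjusted p = 0.0128).

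Of the 28 RB pathway genes 25 were tested, 6 of them higher and 6 lower in Mo-MDSCs, and with the block 12 and 7. This was 24% in each direction, beside 18.5% of all genes higher and 20.6% lower. With the block it was 48% and 28%, beside 27.6% and 29.7% of all genes. Cdkn1a, the gene of p21, was 3.11-fold higher, at 8.18, 6.46 and 8.04 FPKM against 2.95, 1.83 and 2.40 (adjusted p = 0.000667). The inhibitor genes Cdkn2d, for p19, and Cdkn1b, for p27, were 3.16-fold and 2.02-fold lower (adjusted p = 0.00128 and 0.00209). Cdkn2d was at 140.4, 126.1 and 201.4 FPKM in PMN-MDSCs and 41.6, 42.9 and 63.3 in Mo-MDSCs. Ccnd2, cyclin D2, was 1.70-fold lower at 18.0, 18.7 and 15.4 against 30.3, 28.9 and 29.2 (adjusted p = 0.000789).

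Other markers differed between the 2 WT subsets. Summed B cell markers were 1514 to 1735 FPKM in PMN-MDSCs and 1087 to 1226 in WT Mo-MDSCs, and summed red-pulp macrophage markers 7359 to 8306 and 4635 to 5590. Erythroid sums overlapped, at 2017 to 4560 and 1932 to 4382, as did stem and progenitor sums, at 12.3 to 13.7 and 12.8 to 15.2. Sums of the granulocyte progenitor list also overlapped, at 5118 to 20291 and 4289 to 13848, and rested mostly on Camp, Ltf and Ngp. Mean levels of these genes were lower in WT Mo-MDSCs, and those of Mpo, Elane, Prtn3, Ctsg and Ms4a3 higher. The list's log2 mean was higher in WT Mo-MDSCs by 0.79, 1.13 and 0.62 by replicate number. Prtn3 was at 3.44, 1.24 and 6.23 FPKM in PMN-MDSCs and 15.7, 16.2 and 23.4 in WT Mo-MDSCs. T and NK cell sums were 26.4 to 36.9 and 19.2 to 24.2. The part of these markers' cells in the member differences was not tested.

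Comparing Mo-MDSCs labelled DKO with WT Mo-MDSCs asks whether proliferation transcripts change when p16 and p21 are lost. The deleted genes were first read as a check of the labels. Cdkn1a was at 5.55, 8.52 and 6.00 FPKM in the DKO-labelled libraries and 8.18, 6.46 and 8.04 in WT Mo-MDSCs, and these overlapped. Cdkn2a, which encodes p16 and the alternative product ARF, was at 0.258, 0.586 and 0 against 0.718, 0.772 and 0.432. A gene's FPKM pools all its exons and the deleted parts are not given in the sources used here, so neither level checks the label, and directions below are those of the libraries labelled DKO.

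No member differed between these groups at an adjusted p-value below 0.05 (limma), of 47 tested. Over 11451 genes tested, 19 were called higher (0.166%) and 10 lower (0.0873%). At an unadjusted p-value below 0.05 no member was higher and 1, Hmgb2, was lower, beside 5.27% of all genes higher and 9.74% lower. These unadjusted counts depended on single libraries. Without DKO-labelled replicate 1, 13 members were higher and 1 lower, and without DKO-labelled replicate 2, 0 were higher and 6 lower. Shares of all genes were not counted in those fits. No other setting called a member at the adjusted threshold. The median member difference was -0.09 on the log2 scale, and -0.02 over all genes. The mean level over the 47 members was 4.36 ± 0.23 (SD, n = 3) in WT and 4.32 ± 0.41 in DKO-labelled Mo-MDSCs. DKO-labelled replicate 1 was the lowest of the 6 libraries at 3.85 and replicate 2 the highest at 4.60. The median difference was 0.13 without DKO-labelled replicate 1 and -0.25 without DKO-labelled replicate 2.

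The 2 classes lay on opposite sides of 0. Of 16 S-phase members 14 were above 0, with a median of 0.23, and all 21 mitotic members were below 0, with a median of -0.18. Over all 11451 genes tested 5322 were above 0 and 6129 below. Members of a class moved together between libraries, so these counts are not of separate observations. By replicate number the S-phase mean differed by 0.00, 0.17 and 0.55 and the mitotic mean by -0.40, 0.03 and -0.27, so the mitotic direction did not hold in replicate 2. There 13 of 21 mitotic members were above 0, against none in replicate 1 and 2 in replicate 3. Directions by replicate number were not counted over all genes.

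Cdc6, a helicase loading factor gene, had the highest difference. It was at 3.82, 8.18 and 4.26 FPKM in WT and 4.30, 10.9 and 10.4 in DKO-labelled Mo-MDSCs, 1.53-fold higher (0.61, 95% interval -0.33 to 1.55, adjusted p = 0.502). DKO-labelled replicates 2 and 3 were above all WT libraries and replicate 1 lay among them. Mcm2 (0.40, -0.30 to 1.10, adjusted p = 0.558) and Mcm6 (0.39, -0.16 to 0.94, adjusted p = 0.47) came next. Mcm6 was at 28.3, 44.8 and 30.7 against 31.9, 51.6 and 53.4, and again DKO-labelled replicate 1 lay among the WT libraries. Rrm2, at 39.1, 83.8 and 75.2 FPKM in DKO-labelled Mo-MDSCs (0.18, -0.55 to 0.90), and Pcna (0.11, -0.28 to 0.51) had both the lowest and the highest of the 6 Mo-MDSC libraries among those labelled DKO. Gins2, a subunit of the replication fork helicase complex, and Tyms, thymidylate synthase, were the S-phase members below 0, at -0.07 and -0.005.

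The lowest differences were those of Hmgb2, Plk1 and Cdc20. Hmgb2 was at 131.1, 113.5 and 171.2 FPKM in WT and 78.2, 109.6 and 82.2 in DKO-labelled Mo-MDSCs. The groups did not overlap, though WT replicate 2 and DKO-labelled replicate 2 were close. The level was 1.53-fold lower in the DKO-labelled libraries (-0.62, 95% interval -1.04 to -0.20), with an unadjusted p of 0.00973 and an adjusted p of 0.213, and over the 20 alternatives its adjusted p was 0.0561 to 0.999. Plk1, a kinase of mitotic entry and spindle assembly, was at 12.0, 16.6 and 21.3 against 7.15, 15.8 and 12.9 (-0.51, -1.23 to 0.20, adjusted p = 0.465). Cdc20 was at 17.5, 20.2 and 26.7 against 11.3, 21.7 and 17.5 (-0.38, -0.96 to 0.20, adjusted p = 0.5). For both genes DKO-labelled replicate 1 was the lowest library and the groups overlapped.

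The other members with values given here overlapped between the genotypes. Among regulators, E2f1 was at 7.77, 12.2 and 11.6 FPKM in DKO-labelled Mo-MDSCs (0.00, 95% interval -0.41 to 0.42) and E2f8 at 10.4, 19.9 and 18.0 (0.01, -0.55 to 0.58). Foxm1 was at 4.95, 7.94 and 7.71 (-0.37, -0.86 to 0.12) and E2f2 at 27.6, 43.6 and 37.8 (-0.28, -0.67 to 0.12). DKO-labelled replicate 1 was the lowest Mo-MDSC library for each of these 4. Mki67 differed by 0.17 (-0.51 to 0.84) and Top2a, at 27.3, 46.7 and 45.8, by -0.15 (-0.65 to 0.36), and both intervals reach well to either side of 0. Cdk1 was at 8.28, 14.4 and 12.4 (-0.21, -0.72 to 0.31), Ccnb1 at 11.4, 17.7 and 18.4 (-0.18, -0.67 to 0.31) and Ccna2 at 21.7, 37.4 and 32.5 (-0.10, -0.56 to 0.37). Each was lowest in DKO-labelled replicate 1. Lmnb1 was at 23.3, 37.0 and 32.9 (-0.27, -0.68 to 0.15) and Stmn1 at 70.7, 92.1 and 79.9 (-0.17, -0.46 to 0.12). Of the members called between the WT subsets, Kif23 was at 10.5, 14.5 and 14.9 (-0.21, -0.61 to 0.19), Aurkb at 10.9, 19.1 and 15.9 (-0.37, -0.83 to 0.10), Kif11 at 10.8, 18.1 and 16.3 (-0.24, -0.70 to 0.23) and Nusap1 at 10.2, 16.4 and 13.6 (-0.33, -0.72 to 0.07). Replicate 1 was again the lowest of the DKO-labelled libraries for all 4.

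The other pathway genes were not called either. Of 30 further S-phase E2F targets 26 were above 0, with a median of 0.16, and of 35 further mitotic genes 30 were below 0, with a median of -0.10. At an unadjusted p below 0.05 by limma, 2 of the former were higher and 3 of the latter lower, beside 5.27% of all genes higher and 9.74% lower. Of the 25 RB pathway genes tested none was called.

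Marker lists moved with the genotype label too. Summed monocyte markers were 2409 to 2722 FPKM in WT and 1953 to 2145 in DKO-labelled Mo-MDSCs, without overlap, and their log2 means differed by -0.55, -0.16 and -0.48 by replicate number. Ly6c2, Ccr2, Cx3cr1, Fn1 and Ms4a6c were lower without overlap, whereas Csf1r and F13a1 overlapped. Irf8 was higher in the DKO-labelled libraries, at 142.3, 146.7 and 151.1 FPKM against 139.7, 140.7 and 134.0 in WT. Erythroid means were 5.21 ± 0.61 (SD, n = 3) in WT and 5.64 ± 0.38 in DKO-labelled Mo-MDSCs on the log2 scale, and by replicate number they differed by 0.39, 0.01 and 0.90. Summed granulocyte progenitor markers were 4289 to 13848 FPKM in WT and 1887 to 4061 in DKO-labelled Mo-MDSCs, without overlap. Neutrophil sums were 13640 to 48096 and 5190 to 13094, red-pulp macrophage sums 4635 to 5590 and 5830 to 8378, and B cell sums 1087 to 1226 and 1157 to 1472. The neutrophil sums rested mostly on S100a8 and S100a9. Mmp8 went the other way, at 42.3, 50.2 and 55.2 FPKM in WT and 76.0, 112.2 and 71.7 in DKO-labelled Mo-MDSCs. Of the red-pulp macrophage list only Hmox1 and Spic were higher without overlap. Hmox1 was at 1242, 1262 and 1266 FPKM in WT and 2832, 2844 and 2233 in DKO-labelled Mo-MDSCs. Replicate 2 differed least for monocyte, erythroid, neutrophil, granulocyte progenitor and B cell means, at -0.16, 0.01, 0.11, 0.14 and 0.04 on the log2 scale. Red-pulp macrophage means and stem and progenitor means differed least in replicate 3, and T and NK cell means in replicate 1. In replicate 2, 35 of 47 members were above 0, and the share of all genes above 0 there was not counted. T and NK cell sums were 19.2 to 24.2 and 19.2 to 25.6, and stem and progenitor sums 12.8 to 15.2 and 10.7 to 15.2. The part of these cells in the member values was not tested.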

How the data were processed

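Splenic MDSC mRNA of 9 samples had been prepared with a stranded kit and sequenced by the authors as single-end reads. Per the labels, reads were mapped to mm10 with TopHat2 2.0.13, Bowtie2 2.2.3 and SAMtools 0.1.19, and the authors deposited FPKM values from Cuffnorm 2.2.1 for 23284 symbols. The annotation and Cuffnorm's scaling are not given in the sources used here, and reads shared by near-identical genes may have been divided among them. Depth in reads is unknown beyond the relative estimate, so precision is given by standard errors.

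Groups and replicate numbers came from the labels. Values were taken as log2(FPKM + 0.1), which understates changes of low genes. A gene was tested where 3 or more of the 6 libraries compared reached 1 FPKM, with limma 3.58.1 (eBayes with trend, R 4.3.3), and called at a Benjamini-Hochberg adjusted p below 0.05. DKO-labelled Mo-MDSCs were not tested against PMN-MDSCs. The script was tested on simulated data with 200 changed genes. Deviations of same-numbered libraries correlated at 0.294, 0.483 and 0.2 between WT groups, so the number was taken as pairing there, and at 0.348, 0.226 and -0.07 between Mo-MDSC groups, where it was not. The members, the pathway and marker lists and the rule for named genes (the largest called differences, the 3 highest and 3 lowest by genotype, and 15 set members) were chosen with earlier results of these data known. Alternatives were pseudocounts of 1 and 0.01, other filters, quantile normalization, all 9 samples in 1 fit, no variance trend, the study's fold thresholds, fewer replicates and the block. Python 3.11.15 with pandas 2.3.3 was used for tables and promoter motifs.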

Additional observations from a re-analysis of the deposited data

How the results depend on the processing

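The number of members called higher in the monocytic than in the polymorphonuclear WT subset depended on the fit, while no member was called between the Mo-MDSC groups at the adjusted threshold in any fit. The main count of 5 higher was 3 without the filter on low values, 1 with all 9 samples in 1 fit, 3 with replicates 2 and 3 only, and 0 at the study's thresholds, of which the fold above 2 excludes these members by size. With the replicate block it was 21. In fits chosen after seeing the data it was 1 with replicates 1 and 3 or 1 and 2 only, and 18, 18 and 14 under the block without replicate number 1, 2 or 3. Leaving out single libraries gave 1 to 9. Shares of all genes called were counted only in the main and the full blocked fit. The cause of these changes was not tested. Between the Mo-MDSC groups 1 member was lower at the study's thresholds (Hmgb2). The numbers were not taken as pairing these groups, although replicate 1 of each belonged to the earlier series. With the replicate block the median SE of a member was 0.121, against 0.234 without it. In that blocked fit 0 members were called by limma at the adjusted threshold in either direction. At an unadjusted p below 0.05 in it 4 were higher and 6 lower, beside 838 and 1161 of 11451 genes. The count of 3 lower members between the WT groups stayed within 1.5 times under every setting. The median member difference between the WT groups was 0.005 to 0.323 with single libraries left out, lowest without PMN-MDSC replicate 1, and 0.254 after quantile normalization, which moved the median of all genes from 0.01 to 0.06. The 7-letter E2F core was found in 42.1% of members against 26.3% for the 8-letter site. Further pathway genes called higher between the WT groups numbered 0 to 32 of 65. Groups of 3 were too small to test a single library as an outlier.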
